A study of Mus musculus with 12 samples.

Results

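The 10 genes of apolipoproteins and cholesterol export described here were *Apoa1*, *Apoa4*, *Apob*, *Apoc2*, *Apoc3*, *Apoe*, *Mttp*, *Abca1*, *Abcg1* and *Scarb1*, chosen by symbol from the 47632 genes in each table. They were measured by RNA-seq in epithelial cells of the mouse colon, released with EDTA, from 12 C57/BL6 animals. The *Tfeb* ΔIEC animals (labelled KO) had lost *Tfeb*, the gene of a transcription factor of lysosome biogenesis, from the intestinal epithelium, where the villin promoter drives Cre recombinase. The *Tfeb* flox/flox animals (labelled WT) carried the floxed alleles without deletion. Their cells are called ΔIEC and flox/flox cells. Each genotype had 2 animals on Day 0 (untreated, 10 and 12 weeks old), 2 on Day 4 (12 weeks old) and 2 on Day 11 (10 weeks old) of an experiment with dextran sodium sulfate (DSS), an agent that injures the colonic epithelium and was given in the drinking water. Day 4 fell within the DSS period and Day 11 after a recovery on plain water. The labels give 2.5% DSS, and the study's methods give a lower concentration. The question was whether a lower level of *Apoa1* in *Tfeb* ΔIEC animals was shared by the other genes that build, load or take up lipoproteins.

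Apolipoproteins are the protein shell of lipoproteins, the particles that carry lipid in blood and lymph. APOA1 is the main protein of high density lipoprotein (HDL), and enterocytes of the small intestine and hepatocytes are its main sources. Cholesterol leaves cells when the transporters ABCA1 and ABCG1 pass it to APOA1 and to HDL, and the receptor SCARB1 takes cholesterol from HDL into cells. Enterocytes of the small intestine also use APOB and the transfer protein MTTP to build chylomicrons, which carry dietary fat, with APOA4 and the C apolipoproteins on their surface. The colon absorbs little fat.

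All levels are FPKM (fragments per kilobase of transcript and scaled to library size, so that genes of different length can be compared), and each is 1 value per genotype and day that the authors' software pooled from both animals. No value therefore has an error of its own, and no difference between genotypes is given with a test here. The authors' own test columns were not used. Differences are ΔIEC minus flox/flox in log2(FPKM + 1), a scale that understates the change of low values. A gene with at least 1 FPKM in either genotype was counted as lower or higher where this difference reached 1 in size. The genotypes of a day were scaled together, and each day on its own.

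The tables of Days 4 and 11 were nearly the same. Among genes detected on both days, identical values were found for 14.3% in flox/flox and 10.2% in ΔIEC cells, and few genes differed by 1 or more between these days. These were 0.433% lower and 0.131% higher in flox/flox and 0.174% lower and 0.137% higher in ΔIEC cells, and none of the 10 genes was among them. Day 11 is therefore not counted here as a repeat of Day 4, although the labels give each day its own animals. *Tfeb* itself had an FPKM of 0.901 in flox/flox and 0.185 in ΔIEC cells on Day 0, of 1.08 and 0 on Day 4 and of 1.18 and 0 on Day 11.

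The cells carried the marks of colonic epithelium. *Car1*, a carbonic anhydrase of colonocytes, had an FPKM between 22335 and 28996 in the 6 groups, and *Lgals4*, a lectin of the gut epithelium, between 6470 and 16806. Of 15 macrophage markers, 6 (*Adgre1*, *Cd68*, *C1qc*, *Mrc1*, *Cd163* and *Aif1*) were listed at 0 in every group, and of 6 hepatocyte markers 5, *Alb* among them. Of 19 markers of enterocytes of the small intestine, only *Lct* and *Treh* were at 0 in every group, and the other 17 were detected in at least 1 group. In these bulk samples, fewer cells of a type and less RNA per cell cannot be told apart.

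The stretches before the start sites of 3 genes are shown, because *Apoa1* and *Apoe* had the largest differences on Day 0 among the 10 genes and the difference of *Abca1* changed sign between days. They are taken from RefSeq on GRCm38.p6, which is mm10, and written 5′ to 3′ on the strand of the gene, without any bases that GENCODE places inside the gene. Capitals mark the E-box CACGTG, the core of the element that TFEB is known to bind, the nuclear receptor core site AGGTCA and the TATA-box sequence TATAAA, each searched on both strands.
*Apoa1* (chr9:46228380-46228579, plus strand): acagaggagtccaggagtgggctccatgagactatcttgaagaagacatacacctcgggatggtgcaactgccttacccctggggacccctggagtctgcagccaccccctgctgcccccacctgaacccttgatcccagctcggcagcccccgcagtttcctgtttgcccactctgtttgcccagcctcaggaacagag
*Apoe* (chr7:19699189-19699438, minus strand): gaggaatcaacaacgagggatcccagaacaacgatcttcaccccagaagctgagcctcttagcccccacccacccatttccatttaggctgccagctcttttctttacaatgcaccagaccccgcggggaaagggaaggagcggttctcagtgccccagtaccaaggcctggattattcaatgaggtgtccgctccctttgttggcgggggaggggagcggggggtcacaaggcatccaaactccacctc
*Abca1* (chr4:53159896-53160145, minus strand): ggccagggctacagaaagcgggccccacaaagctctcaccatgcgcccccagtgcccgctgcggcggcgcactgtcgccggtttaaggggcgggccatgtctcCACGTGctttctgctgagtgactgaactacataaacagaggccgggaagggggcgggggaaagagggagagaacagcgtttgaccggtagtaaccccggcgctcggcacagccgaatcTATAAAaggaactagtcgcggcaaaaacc

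The 250 bases before the start of *Abca1* held the E-box once, 147 bases before the start site, and TATAAA once, 29 bases before it. The stretches of *Apoa1* and *Apoe* shown held none of the 3 sequences. *Apoe* had 3 windows in the table, of which the one before its first start site is shown, and another held TATAAA, 96 and 100 bases before its start site. Among the 7 of the 10 genes with a RefSeq window, CACGTG was found before *Abca1* only, AGGTCA before *Apoc2* only, 115 bases from its start site, and TATAAA before *Apob*, *Apoe* and *Abca1*. Of all 32851 windows of this length, 6.02% held CACGTG, 14.02% AGGTCA and 12.4% TATAAA. A match describes the letters and shows no binding. *Apoc3*, *Abcg1* and *Scarb1* had no window in the table used.

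*Apoa1*, the HDL protein, was lower in ΔIEC cells in each of the 3 tables, and by far the most on Day 0. On Day 0 it had an FPKM of 17.7 in flox/flox cells and was listed at 0 in ΔIEC cells. On Day 4 the values were 4.99 and 1.89, and on Day 11 they were 5.31 and 1.89. The flox/flox value was thus the higher one on every day, and the ΔIEC value was identical on Days 4 and 11. The difference in log2(FPKM + 1) was -4.23 on Day 0, then -1.05 on Day 4 (2.64-fold lower) and -1.13 on Day 11 (2.80-fold lower). *Apoa1* (ENSMUSG00000032083.8) lies on chromosome 9 of mm10 from 46228580 to 46230466 on the plus strand and has a transcript of 1035 nt. It was chosen with its difference known, so these values are a description.

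**Figure D1:**
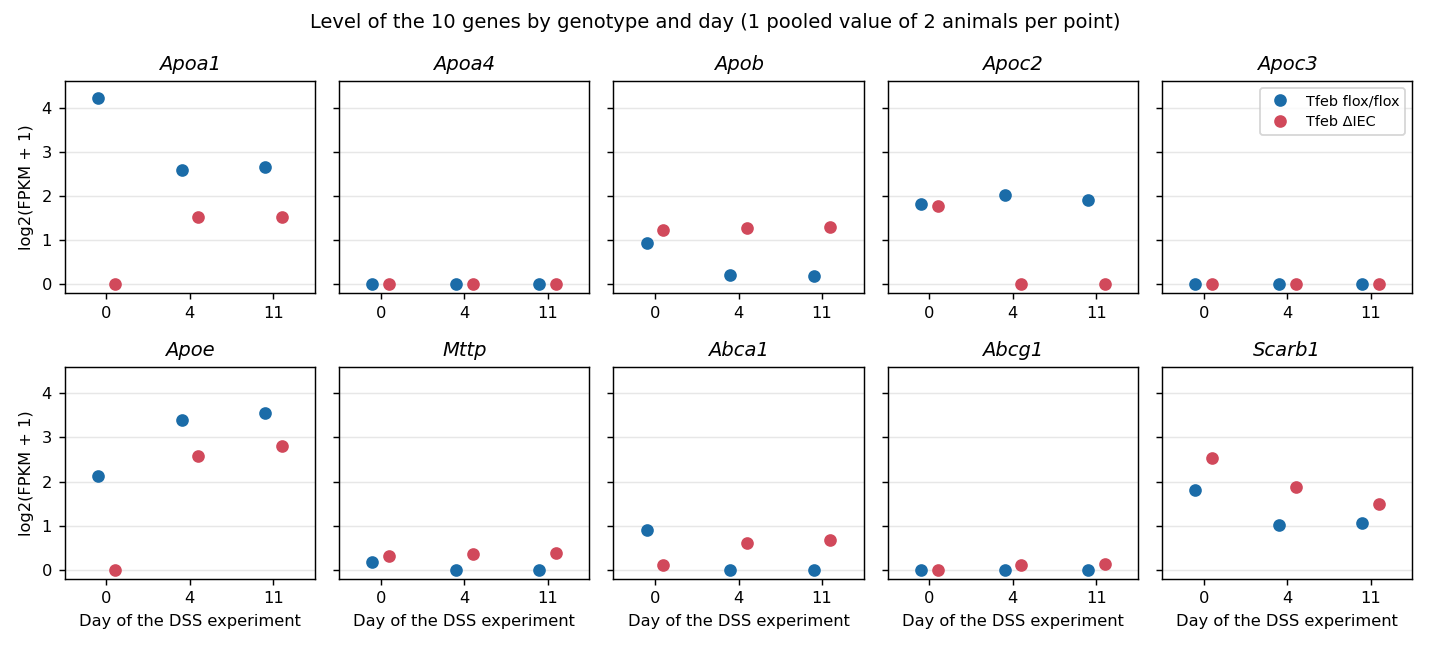
Level of the 10 genes in log2(FPKM + 1) by genotype and day of the DSS experiment. Each point is 1 value pooled from 2 animals, so no error can be drawn. *Apoa1* in flox/flox cells lies at 17.7 FPKM on Day 0 and at 4.99 and 5.31 FPKM on Days 4 and 11, and the ΔIEC points of *Apoa1* and *Apoe* lie at 0 on Day 0 and above it later.

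The place of *Apoa1* among all genes differed between the days. On Day 0 its difference stood at percentile 0.550 of the 9993 genes counted, of which 16.1% were lower by 1 or more. On Day 4 it stood at percentile 24.9 of 9371 genes, of which 26.1% were lower, and on Day 11 at percentile 22.7 of 9365 genes, of which 25.7% were lower. The difference of Day 0 was thus among the lowest of its day, and the smaller ones of Days 4 and 11 were common on theirs. Short transcripts tended to be lower in ΔIEC cells throughout. In the tenth of the genes with transcripts of similar length to *Apoa1* (839 to 1208 nt on Day 0), the median difference was -0.33 on Day 0, then -0.66 on Day 4 and -0.64 on Day 11. Less these medians, the *Apoa1* difference was -3.90, -0.39 and -0.49. The summed FPKM of all genes was 1.79 times higher in flox/flox than in ΔIEC cells on Day 4 and 1.78 times on Day 11, and with each group divided by its sum the difference of *Apoa1* was -0.41 and -0.49 on these days and -4.26 on Day 0. That division moved the median difference of all genes from 0.06 to 0.75 on Day 4 and from 0.08 to 0.76 on Day 11, and the shares of all genes lower and higher from 26.1% and 25.6% to 15.2% and 42.2% on Day 4.

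The number of fragments (sequenced read pairs) behind these values was estimated, because low values of genes with 1 transcript fell on evenly spaced steps. On Day 0, 89.9% of the low values in flox/flox and 79.0% in ΔIEC cells lay within 0.1 of a whole number of steps. On Days 4 and 11 only 29.7% to 53.5% did, so the estimates for these days are rough. For *Apoa1*, the values of Day 0 came to about 34 fragments in flox/flox cells (95% Poisson interval 23.5 to 47.5) and, if the listed 0 stands for 0 fragments, to an upper bound of 3.69 in ΔIEC cells. On that reading the intervals did not overlap, but they cover counting error only and not the variation between animals. A listed 0 is not shown to mean that a gene was not expressed. Of 13 mitochondrial genes for proteins, which every cell uses, 2 short ones (*mt-Nd3*, 348 nt, and *mt-Nd4l*, 297 nt) were also listed at 0 in ΔIEC cells on Day 0, and 0 of the 13 were at 0 in flox/flox cells. The same limit holds for each 0 given here. Here and for the other genes, intervals were compared after multiplication by the FPKM that 1 fragment was worth, because the depth differed between genotypes. On Day 4 about 7 fragments in flox/flox cells (2.81 to 14.4) stood against about 5 in ΔIEC cells (1.62 to 11.7), and on Day 11 about 9 (4.12 to 17.1) against about 4 (1.09 to 10.2). The intervals of the genotypes overlapped on both days. On Day 4, 1 fragment of *Apoa1* was worth about 0.694 FPKM in flox/flox and 0.417 FPKM in ΔIEC cells, so the genotypes stood closer in fragments than in FPKM.

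**Figure D2:**
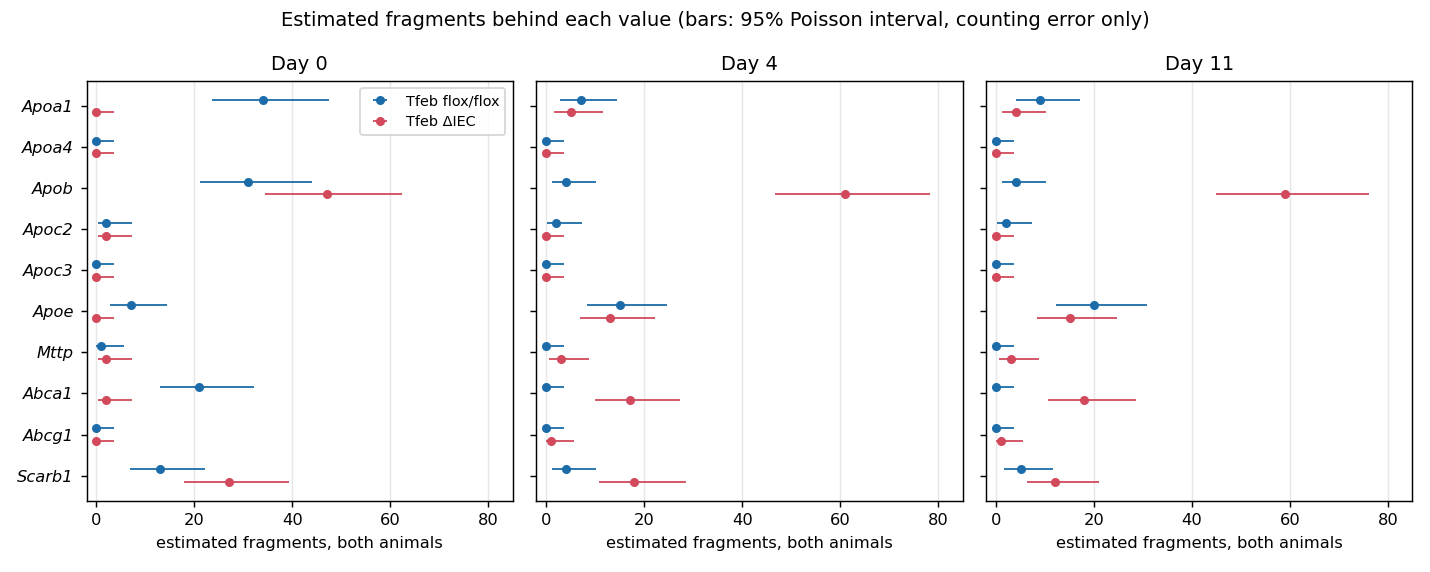
Estimated fragments of both animals together behind each value of the 10 genes, by day. Bars are 95% Poisson intervals, which cover counting error only. Scaled to FPKM, the intervals of the genotypes do not overlap for *Apoa1* and *Abca1* on Day 0 and for *Apob* and *Abca1* on Days 4 and 11, taking a listed 0 as 0 fragments, those of *Scarb1* on Day 4, which stand apart in fragments, overlap, and most other values rest on fewer than 20 fragments.

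Markers of the tissues that are the main sources of APOA1 gave these values beside it. Of 6 hepatocyte markers, 5 were listed at 0 in every group, and *Ttr*, the gene of transthyretin, had an FPKM of 10.3 in flox/flox and 6.74 in ΔIEC cells on Day 0, of 6.80 and 2.85 on Day 4 and of 6.60 and 2.95 on Day 11. The 19 markers of enterocytes of the small intestine summed to 145 in flox/flox and 155 in ΔIEC cells on Day 0, to 108 and 233 on Day 4 and to 104 and 227 on Day 11. The enterocyte sum was thus higher in ΔIEC cells on each day, and *Ttr* lower. On Day 0, however, 7 of the 11 enterocyte markers counted had a difference below 0, with a median difference of -0.36, and without *Mep1a*, a brush border protease that had 20.1 and 42.2, the sums of that day were 125 and 112. *Fabp6*, an ileal bile acid binding protein in that list, had 18.8 and 1.74 on Day 0, 23.96 and 2.65 on Day 4 and 22.9 and 2.65 on Day 11. The part of these cells in the *Apoa1* result was not tested.

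The neighbours of *Apoa1* in its gene cluster were listed at 0, so that their pattern could not be compared with its own. *Apoa4*, a chylomicron and HDL protein on chromosome 9 from 46240696 to 46243459, was listed at 0 in all 6 groups, as was *Apoc3*, an inhibitor of lipoprotein lipase on the same chromosome from 46232933 to 46235636. *Apoa5*, which lies in the same cluster, was also at 0 throughout. A level of 3 fragments would have been about 0.781 FPKM for *Apoa4* and 4.43 FPKM for *Apoc3* in flox/flox cells on Day 0, so lower levels, in particular of the short *Apoc3* transcript, were not detectable at this depth. *Zpr1*, a zinc finger protein gene next to the cluster, had an FPKM of 11.1 in flox/flox and 4.997 in ΔIEC cells on Day 0, of 2.52 and 4.17 on Day 4 and of 2.56 and 4.23 on Day 11. It was named after its values were seen.

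*Apoe*, a ligand of lipoprotein receptors that macrophages and many other cells secrete, was the other gene of the 10 that was lower by 1 or more on Day 0. Its FPKM was 3.35 in flox/flox and 0 in ΔIEC cells on Day 0, 9.51 and 4.96 on Day 4, and 10.8 and 5.94 on Day 11. Like *Apoa1* it was lower in ΔIEC cells in each table, but unlike *Apoa1* its level was higher on Days 4 and 11 than on Day 0 in both genotypes. The difference was -2.12 on Day 0, where it stood at percentile 2.92 of all genes counted, -0.82 on Day 4 and -0.77 on Day 11, and the last 2 did not reach the size counted as lower. With each group divided by its sum, the differences of Days 4 and 11 were -0.09 and -0.03, and less the median of genes of similar length they were -0.16 and -0.13. The Day 0 values came to about 7 fragments (2.81 to 14.4) against 0 (upper bound 3.69), so the *Apoe* intervals overlapped. On Day 4 about 15 fragments (8.40 to 24.7) stood against about 13 (6.92 to 22.2). With 6 basic transcripts between 472 and 1408 nt, the fragments of *Apoe* are less certain than those of *Apoa1*. *Apoe* (ENSMUSG00000002985.16) lies on chromosome 7 from 19696109 to 19699188 on the minus strand.

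Macrophage markers gave the following values beside *Apoe*. The 15 markers in the tables summed to an FPKM of 5.41 in flox/flox and 7.02 in ΔIEC cells on Day 0, to 11.6 and 16.0 on Day 4 and to 12.1 and 18.9 on Day 11. Their highest genes by mean FPKM over the 6 groups were *Cd14*, a lipopolysaccharide receptor that had 1.46 in flox/flox and 9.11 in ΔIEC cells on Day 4, and *Lyz2*, a lysozyme that had 2.88 and 1.77. The sum was higher in ΔIEC cells on each day, but *Cd14* alone set that direction. Without it the sums were 3.25 in flox/flox and 1.80 in ΔIEC cells on Day 0, 10.1 and 6.93 on Day 4 and 10.5 and 7.67 on Day 11. These lower sums in ΔIEC cells rest on few estimated fragments, so a parallel with *Apoe* cannot be read from them. *Lyz2* came to about 2 fragments in each genotype on Day 0 and to about 6 in each on Day 4. The median difference of the 2 markers counted on Day 0 was -0.12, and that of the 5 counted on Days 4 and 11 was -0.49. *Tyrobp*, a signalling adaptor of myeloid cells, had 1.31 in flox/flox cells on Day 0, 4.47 on Day 4 and 4.14 on Day 11 and was at 0 in ΔIEC cells throughout. *C1qb*, a complement subunit, went the other way with 0 and 3.26 on Day 4, about 0 and 8 fragments. *Tyrobp*, *C1qb* and *Mep1a* were named after their values were seen. The part of these cells in the *Apoe* result was not tested.

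*Apoc2*, the activator of lipoprotein lipase, lies in the same gene cluster as *Apoe* and behaved differently from *Apoa1* on Day 0. Its FPKM was 2.51 in flox/flox and 2.39 in ΔIEC cells on Day 0, 3.04 and 0 on Day 4, and 2.78 and 0 on Day 11. The genotypes thus stood side by side before DSS and apart on Days 4 and 11. The difference was -0.05 on Day 0, then -2.01 on Day 4 and -1.92 on Day 11. After the median of genes of similar length was taken off, it was 0.65, -0.72 and -0.65, so that neither later value reached the size counted as lower. Each value above 0 rested on about 2 fragments (0.242 to 7.22), so none of these differences was detectable at this depth. *Apoc2* (ENSMUSG00000002992.17), on chromosome 7 from 19671579 to 19677941, overlaps a read-through gene that carries the same symbol in the tables and had values up to 0.013, and the tables do not show how fragments were split between both. In the same cluster, *Apoc1* had 2.34 in flox/flox cells on Days 4 and 11 and 0 elsewhere, and *Apoc4* was at 0 throughout. *Tomm40*, the mitochondrial import gene next to *Apoe*, had 16.7 in flox/flox and 23.4 in ΔIEC cells on Day 0 and 17.8 and 16.3 on Day 4. These neighbours were named for their position after their values were seen.

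*Apob*, the structural protein of chylomicrons, went the other way from *Apoa1* on Days 4 and 11. Its FPKM was 0.921 in flox/flox and 1.33 in ΔIEC cells on Day 0, 0.156 and 1.41 on Day 4, and 0.145 and 1.44 on Day 11. The ΔIEC level was nearly the same on the 3 days, and the flox/flox level was the lower one on Days 4 and 11. The difference was 0.28 on Day 0, then 1.06 on Day 4 (9.07-fold higher) and 1.09 on Day 11 (9.92-fold higher). After the median of genes of similar length was taken off, it was -0.11, 0.69 and 0.68, so that neither later value reached the size counted as higher. With each group divided by its sum, it was 1.30 on Day 4 and 1.32 on Day 11. With a transcript of 13934 nt, *Apob* gathered more fragments than its FPKM implies, about 4 in flox/flox (1.09 to 10.2) and 61 in ΔIEC cells (46.7 to 78.4) on Day 4. These intervals did not overlap. Long transcripts tended to be higher in ΔIEC cells, with a median difference of 0.37 on Day 4 and 0.41 on Day 11 in the tenth with the longest transcripts, and the share of all genes higher by 1 or more was 25.6% on Day 4 and 26.1% on Day 11. *Apob* (chromosome 12, 7977648 to 8016835) was the only one of the 10 genes counted as higher on either day.

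*Mttp*, which loads lipid onto APOB, was near the limit of detection. It had an FPKM of 0.139 in flox/flox and 0.235 in ΔIEC cells on Day 0, and it was at 0 in flox/flox cells on Days 4 and 11, against 0.275 and 0.297. These values stand for 0 to 3 fragments, so no difference was detectable. *Mttp* lies on chromosome 3 from 138089854 to 138144968.

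*Abca1*, the transporter that passes cholesterol to APOA1, had opposite differences on Day 0 and on Days 4 and 11. Its FPKM was 0.871 in flox/flox and 0.075 in ΔIEC cells on Day 0, 0 and 0.537 on Day 4, and 0 and 0.601 on Day 11. flox/flox cells thus had the higher level on Day 0 and none listed later, and ΔIEC cells the reverse. The difference was -0.80 on Day 0, then 0.62 on Day 4 and 0.68 on Day 11, and the gene was not counted because it stayed under 1 FPKM. With a transcript of 10262 nt, these low levels came to about 21 fragments (13.0 to 32.1) against 2 (0.242 to 7.22) on Day 0, 0 (upper bound 3.69) against 17 (9.90 to 27.2) on Day 4 and 0 against 18 (10.7 to 28.4) on Day 11. With a listed 0 taken as 0 fragments, the intervals of the genotypes did not overlap on any day. The sign was the same with each scaling tried. The change of sign between Day 0 and the later days was not tested, since there is 1 pooled value per genotype. *Abca1* lies on chromosome 4 from 53030787 to 53159895 on the minus strand, and the stretch before it is shown above with its E-box.

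*Abcg1* (chromosome 17, 31057675 to 31117988), which passes cholesterol to mature HDL, was at 0 in both genotypes on Day 0 and in flox/flox cells on all days. It had 0.077 in ΔIEC cells on Day 4 and 0.092 on Day 11, about 1 fragment each. *Scarb1* (chromosome 5, 125277087 to 125341094), the HDL receptor, was detected in every group. Its FPKM was 2.49 in flox/flox and 4.798 in ΔIEC cells on Day 0, 1.04 and 2.70 on Day 4, and 1.09 and 1.80 on Day 11. The ΔIEC level was the higher one on each day, by 1.93-fold, 2.61-fold and 1.65-fold. The difference was 0.73 on Day 0, then 0.86 on Day 4 and 0.42 on Day 11, none of which reached the size counted as higher, and the value of Day 11 became -0.23 after the median of genes of similar length was taken off. The value of Day 4 reached that size with each group divided by its sum (1.33) and with a pseudocount of 0.1 FPKM (1.30). On Day 4 about 4 fragments (1.09 to 10.2) stood against about 18 (10.7 to 28.4), and on Day 0 about 13 (6.92 to 22.2) against about 27 (17.8 to 39.3). Scaled to FPKM, the *Scarb1* intervals overlapped on both days, and on Day 4 they ran from 0.276 to 2.59 in flox/flox and from 1.56 to 4.16 in ΔIEC cells.

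**Figure D3:**
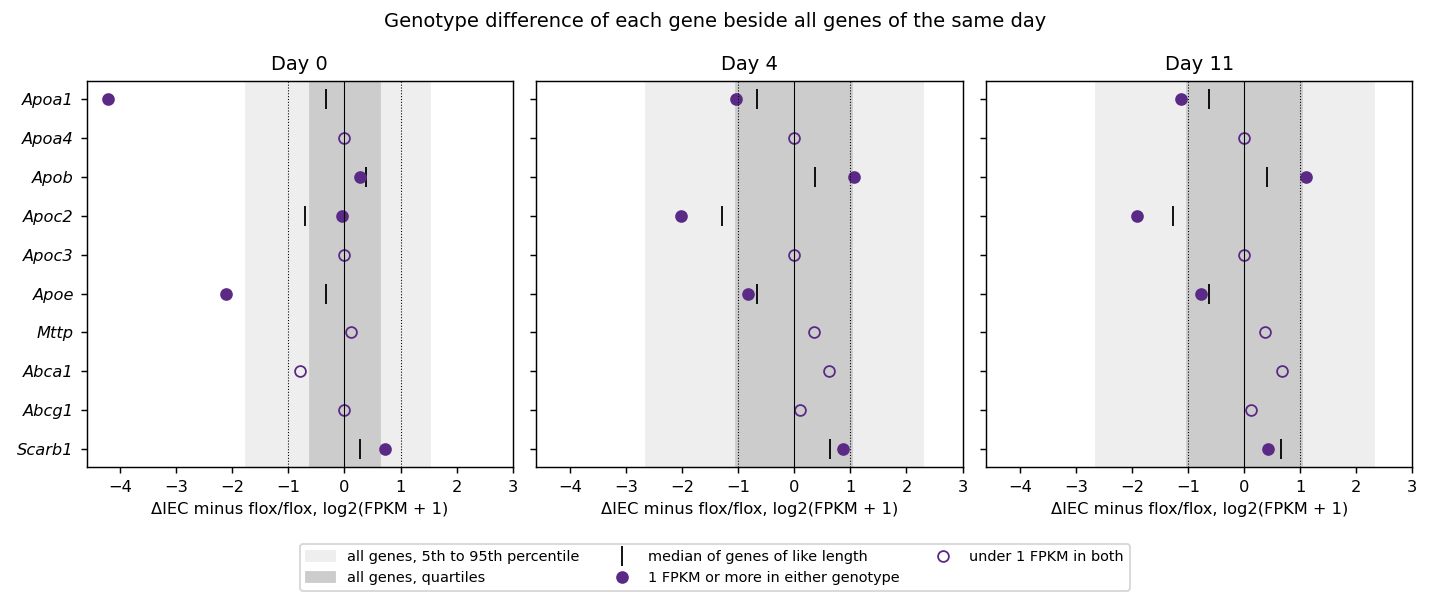
Difference between genotypes for each of the 10 genes in log2(FPKM + 1), by day. Grey bands give the spread of all genes counted, ticks the median of genes of similar length, and open circles genes under 1 FPKM in both genotypes. *Apoa1* and *Apoe* lie outside the 5th to 95th percentile of all genes on Day 0 (-1.75 to 1.53), and none of the 10 genes does so on Days 4 and 11.

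Read together, 5 of the 10 genes had at least 1 FPKM in either genotype on each day, and 2 of these were lower by 1 or more in ΔIEC cells on each day. On Day 0 these were *Apoa1* and *Apoe*, beside 16.1% of all genes, and 0 were higher, beside 13.5%. On Days 4 and 11 they were *Apoa1* and *Apoc2*, beside 26.1% and 25.7% of all genes, and *Apob* was higher. *Apoa1* was the only one of the 10 genes lower by 1 or more on all 3 days, as were 9.21% of the 8177 genes counted on all days. After the median of genes of similar length was taken off, 2 of the 5 were still lower and 0 higher on Day 0, beside 11.7% and 11.8% of all genes under the same centring, and 0 were lower or higher on Days 4 and 11, beside 20.8% lower and 20.1% higher on Day 4 and 21.1% and 20.1% on Day 11. With each group divided by its sum, 1 was lower and 2 were higher on Day 4, beside 15.2% and 42.2% of all genes.

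Within a genotype, levels of different days come from tables scaled separately and are given side by side only. From Day 0 to Day 4, *Apoa1* was lower in flox/flox cells, with a difference of -1.64, beside 25.7% of all genes lower by 1 or more, and *Apoe* was higher, with 1.27, beside 17.5% higher. In ΔIEC cells, *Apoc2* was lower, with -1.76, beside 15.6% of all genes, and *Apoa1* and *Apoe* were higher, with 1.53 and 2.57, beside 9.26%. *Apoa1* thus stood at a lower level in flox/flox cells and at a higher one in ΔIEC cells on Day 4 than on Day 0, and *Apoe* at a higher one in both. In ΔIEC cells the *Apoa1* intervals of Day 0 (up to 1.82 FPKM) and Day 4 (0.678 to 4.87 FPKM) overlapped. So did those of *Apoc2* in ΔIEC cells (0.247 to 7.36 and up to 3.29) and of *Apoe* in flox/flox cells (1.32 to 6.78 and 5.29 to 15.6). With a listed 0 taken as 0 fragments, those of *Apoe* in ΔIEC cells (up to 1.65 and 2.61 to 8.39) did not. Those of *Apoa1* in flox/flox cells (12.2 to 24.6 and 1.95 to 10.0) did not either. These intervals cover counting error only.

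The genes most like *Apoa1* in the 3 differences were looked for among the 3971 genes with at least 5 FPKM in either genotype on every day. This left out all 10 genes described here, none of which reached that level on every day. By Euclidean distance between the differences of Days 0, 4 and 11, the nearest were *Gm43110* (distance 0.340), *Sp3os* (0.388), *mt-Nd3* (0.843), *Gm16020* (1.05) and *Gm15730* (1.10). *mt-Nd3* encodes a subunit of respiratory complex I, and its FPKM was 14.1 in flox/flox and 0 in ΔIEC cells on Day 0, 34.8 and 10.7 on Day 4, and 37.6 and 11.1 on Day 11. All 5 were listed at 0 in ΔIEC cells on Day 0, so that they passed the limit of that day through flox/flox cells alone, and their transcripts were shorter than that of *Apoa1*, from 210 to 606 nt. On Days 4 and 11 their flox/flox values were between 13.1 and 67.6.

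Other apolipoproteins were split. Of the 19 genes listed, 6 had at least 1 FPKM in either genotype on each day, and 2 were lower and 2 higher on each day, beside 16.1% and 13.5% of all genes on Day 0, 26.1% and 25.6% on Day 4 and 25.7% and 26.1% on Day 11. On each day 4 of the 6 had a difference below 0, with medians of -0.77 on Day 0 and -0.31 on Days 4 and 11. Less the medians of genes of similar length, 3 were lower and 1 higher on Day 0, beside 11.7% and 11.8% of all genes, and the median was -0.87. On Days 4 and 11, 1 was then lower and 2 were higher, with medians of -0.20. The shares of all genes were 20.8% and 20.1% on Day 4 and 21.1% and 20.1% on Day 11. *Saa1*, an acute-phase protein carried on HDL that is also a colonocyte marker, had 205 in flox/flox and 46.0 in ΔIEC cells on Day 0, 452 and 77.0 on Day 4, and 457 and 77.9 on Day 11, differences of -2.13, -2.54 and -2.54. Its transcript has 609 nt, and the medians of genes of similar length were -0.70, -1.29 and -1.27. *Saa3*, of the same family and named after its values were seen, had 2.93 and 1.42 on Day 0, 0 and 4.33 on Day 4, and 0 and 4.54 on Day 11. *Apol10a*, of the apolipoprotein L family, had 5.79 and 12.6 on Day 0, 2.33 and 33.6 on Day 4, and 2.10 and 30.3 on Day 11. *Saa1* was thus lower and *Apol10a* higher in ΔIEC cells in each table. *Apoa2*, the other main HDL protein, *Apoa5*, *Apod* and *Apoh*, named after their values were seen, were listed at 0 in every group.

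Genes of cholesterol synthesis were more often higher than lower in ΔIEC cells, also before DSS. All 24 listed genes were counted, of which 4 (*Insig1*, *Insig2*, *Scap* and *Srebf2*) encode regulators of the pathway and not enzymes. On Day 0, 8 were higher by 1 or more and 0 lower, on Day 4 they were 11 and 1, and on Day 11 they were 12 and 2. Of all genes, 13.5% were higher and 16.1% lower on Day 0, 25.6% and 26.1% on Day 4 and 26.1% and 25.7% on Day 11. The median difference was 0.59 on Day 0, then 0.85 on Day 4 and 1.17 on Day 11, against medians of 0.06, 0.06 and 0.08 over all genes counted. Less the medians of genes of similar length, the list medians were 0.33, 0.63 and 0.68. Without the 4 regulators, the remaining 20 genes had 6 higher and 0 lower on Day 0, 10 and 1 on Day 4 and 10 and 2 on Day 11, with medians of 0.46, 1.16 and 1.10. Most colonocyte markers were higher with them on the later days. Of 18 listed, 16 were counted, with 1 higher and 5 lower on Day 0 (median -0.31) and 9 higher and 3 lower on Days 4 and 11 (medians 1.28 and 1.34). Their summed FPKM was the lower one in ΔIEC cells on each day. It was 58062 in flox/flox and 35426 in ΔIEC cells on Day 0 and 86122 and 53011 on Day 4. Most of each sum came from *Car1*, *Lypd8* and *Guca2a*, so the sums do not speak for the whole list. On Day 4 *Guca2a* had 33249 and 9202 and *Lypd8* 26740 and 14731, but *Car1* went the other way with 24745 and 26614. The *Guca2a* transcript has 594 nt, and the median difference of genes of similar length was -1.29 on Day 4. *Slc26a2*, a sulphate transporter in that list, had 54.9 and 189 on Day 0 and 13.02 and 266 on Day 4. The part of the colonocyte markers in the result on cholesterol synthesis was not tested, and the 4 regulators were named after their values were seen. *Hmgcs1*, which makes the precursor of mevalonate, had an FPKM of 12.1 in flox/flox and 62.4 in ΔIEC cells on Day 0 (5.15-fold), 4.74 and 84.3 on Day 4, and 4.18 and 80.9 on Day 11. *Dhcr7*, which catalyses the last step of a branch of the pathway, had 1.59 and 28.4 on Day 4 and 1.62 and 28.6 on Day 11. Both enzymes were higher in ΔIEC cells on the days given, but *Pmvk*, which phosphorylates mevalonate phosphate, had 17.7 and 6.93 on Day 4, and *Fdps*, which makes farnesyl diphosphate, 39.2 and 19.2. Of the 24 genes, 5 were higher by 1 or more on all 3 days, as were 5.14% of all genes counted on all days, and *Hmgcs1* was among them, as were *Idi1*, *Sqle* and *Cyp51*, which were named after their values were seen. Unlike most of the lipoprotein genes, *Hmgcs1* rested on many fragments, about 92 and 499 on Day 0.

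**Figure D4:**
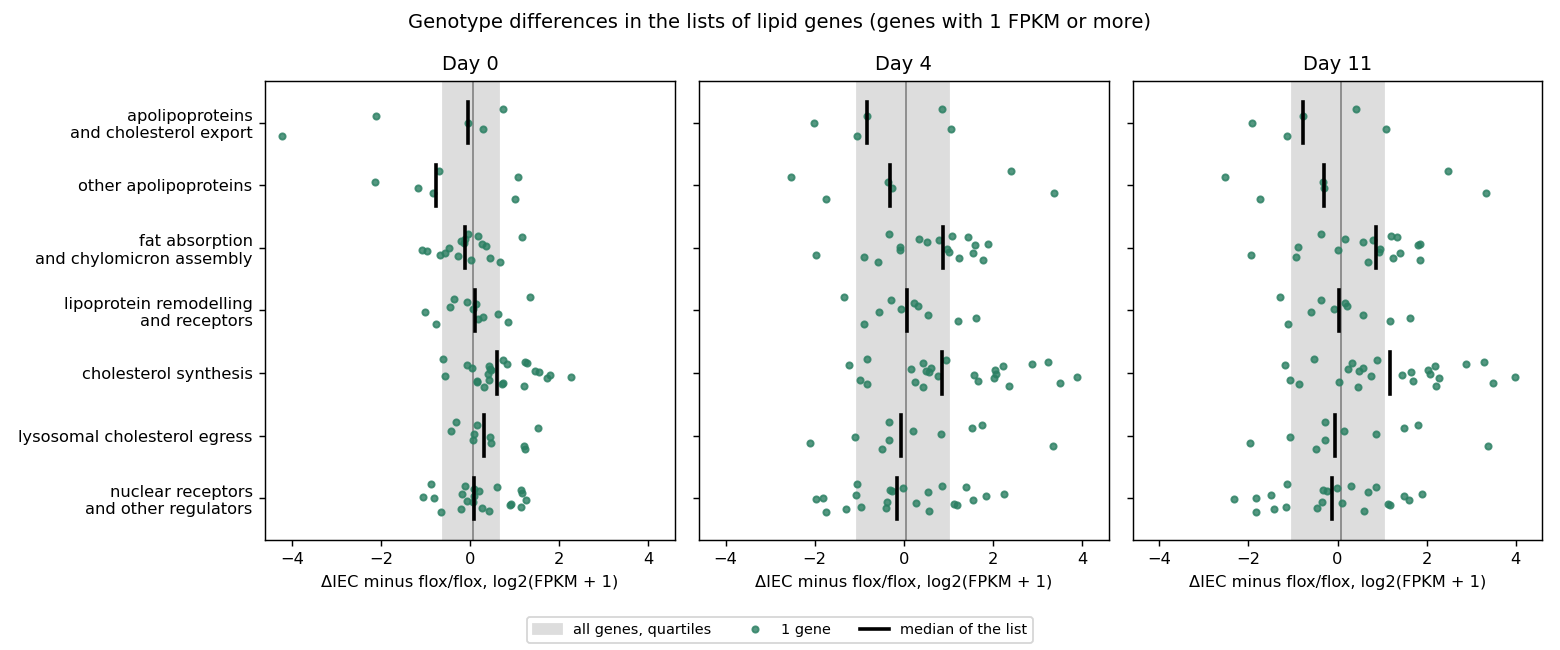
Difference between genotypes in log2(FPKM + 1) for each gene with at least 1 FPKM in either genotype (points), by list and day, with the median of the list (black line) and the quartiles and median of all genes counted (grey band and line). The cholesterol synthesis genes have a median of 0.59 on Day 0, 0.85 on Day 4 and 1.17 on Day 11, and the points of the 10 genes of apolipoproteins and cholesterol export lie on both sides of 0 on each day.

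Genes of fat absorption and chylomicron assembly were split by day. Of 26 listed, 17 were counted on Day 0, with 1 lower and 1 higher, beside 16.1% and 13.5% of all genes. On Day 4, 18 were counted, with 1 lower and 8 higher, beside 26.1% and 25.6%. The median difference was -0.11 on Day 0, then 0.88 on Day 4 and 0.87 on Day 11. Less the medians of genes of similar length, it was 0.45 on Day 4, with 2 lower and 5 higher, beside 20.8% and 20.1% of all genes. *Fabp2*, the intestinal fatty acid binding protein, had 1882 in flox/flox and 891 in ΔIEC cells on Day 0 and 852 and 799 on Day 4. *Creb3l3*, a factor known to activate apolipoprotein genes, had 0.38 and 0.18 on Day 0 and 7.81 and 1.24 on Day 4, and *Plin2*, a coat protein of lipid droplets, had 7.13 and 29.0 on Day 4. *Fabp1*, the liver-type fatty acid binding protein, was at 0 in every group.

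Receptors and remodelling enzymes of lipoproteins were mixed. Of 19 listed, 12 were counted on Day 0, with 1 lower and 1 higher, beside 16.1% and 13.5% of all genes, and 10 on Day 4, with 1 lower and 2 higher, beside 26.1% and 25.6%. Less the medians of genes of similar length, 3 were lower and 1 higher on Day 4, beside 20.8% and 20.1%, and the median went from 0.08 to -0.50. *Lpcat3*, which remodels phospholipids, had 10.6 in flox/flox and 34.8 in ΔIEC cells on Day 4 and was higher by 1 or more on Days 4 and 11. Among 12 genes of cholesterol egress from lysosomes, 10 were counted on each day, with 0 lower and 3 higher on Day 0 and 2 lower and 3 higher on Day 4, beside the same shares of all genes. Less the medians of genes of similar length, 0 were lower and 1 higher on Day 0, beside 11.7% and 11.8%, and the median went from 0.30 to -0.05. On Day 4, 3 were then lower and 3 higher, beside 20.8% and 20.1%, and the median went from -0.06 to -0.31. *Lipa*, the lysosomal acid lipase that frees cholesterol from its esters, had 4.03 and 10.6 on Day 0, 0.88 and 18.2 on Day 4, and 0.88 and 18.6 on Day 11, and *Stard4*, a sterol carrier, had 6.81 and 21.4 on Day 0. The 2 genes lower on Day 4 before this centring, named after their values were seen, were *Npc1*, which moves cholesterol out of the lysosome and had 4.64 and 0.306, and *Osbp*, a sterol carrier that had 1.50 and 0.179.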

How the data were processed

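Epithelial cells of the colon were profiled with full-length cDNA libraries of a SmartSeq2 type and paired-end sequencing on a MiSeq. Per the labels, TopHat2 2.0.14 and Cuffdiff 2.1.1 were used with mm10. The authors pooled both animals of a genotype into 1 FPKM value per gene and day with Cuffdiff and deposited 1 table per day. Its columns of fold change, test statistic, p-value and q-value hold the authors' own comparison and were not used. Groups were taken from the labels. No values per animal were used, so no SD, test or paired fit was made.

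Tables were joined by Ensembl identifier. Differences were computed in log2(FPKM + 1) over genes with at least 1 FPKM in either genotype, and differences of 1 or more were counted beside the same share of all genes. Transcript lengths were medians over the basic transcripts of GENCODE M21 (47218 genes), and genes were split into 10 groups of length. The value of 1 fragment was estimated per genotype and day from the spacing of low values of genes with 1 transcript of 600 to 6000 nt, with an effective length 225 to 275 nt below the transcript length. Poisson intervals at 95% cover counting error only. The tools were Python 3.11.15, matplotlib 3.10.9, scipy 1.17.1, pandas 2.3.3 and numpy 2.4.6, and the computations were tested on simulated data.

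The genes described, the lists and the alternatives were chosen with earlier results of these data known. All 10 genes were named, and of each list the 2 genes per day with the largest lower and the 2 with the largest higher difference at 5 FPKM or more, the 2 highest markers of a marker list, and the 5 genes nearest to *Apoa1*. Not all of these are described in the text, and results for some single genes of the lists are not reported here. Other genes were named after their values were seen. Alternatives were a pseudocount of 0.1 or 5 FPKM, no filter or a filter at 5 FPKM, a difference of 2, division of each group by its sum, and centring on the median of the day or of genes of similar length. Added after the data were seen were a filter at 10 estimated fragments, all alternatives for the cholesterol synthesis genes, marker sums without 1 gene (*Cd14* or *Mep1a*), and lists without *Tfeb* or without the regulators of cholesterol synthesis.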

Additional observations from a re-analysis of the deposited data

Results flagged for a closer look

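*Abca1* differed in direction between Day 0 and the later days. The level in ΔIEC cells minus that in flox/flox cells, in log2(FPKM + 1), was -0.80 on Day 0 but 0.62 on Day 4 and 0.68 on Day 11. This difference between the days was not tested, since each genotype had 1 pooled value per day, and the values of Days 4 and 11 are not independent of each other.

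*Aqp8*, a water channel of colonocytes that served as a marker here, showed the same kind of change at a higher level. Its FPKM was 198 in flox/flox and 30.1 in ΔIEC cells on Day 0, 25.3 and 69.3 on Day 4, and 25.1 and 70.9 on Day 11. The differences were -2.67, 1.42 and 1.46, and the difference between the days was not tested.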

How the results depend on the processing

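No paired analysis was possible because each genotype had 1 pooled value per day, and no replicate could be left out for the same reason. With a pseudocount of 5 FPKM, the lower counts of the 10 genes (2 of 5 on each day) were 1, 0 and 0. The shares of all genes lower were then 6.24% on Day 0, 13.6% on Day 4 and 13.6% on Day 11. At least 10 estimated fragments left 3 genes on each day, of which 1, 0 and 0 were lower, beside 12.0%, 22.3% and 22.6%. At least 5 FPKM left only 1, 1 and 2 genes, of which 1, 0 and 1 were lower, beside 18.4%, 34.8% and 34.6%. A difference of 2 gave 1 lower gene on Day 4 and 0 on Day 11, division by the sum 1 on each of these days, and centring on genes of similar length 0. The higher counts (1 on Days 4 and 11) were 0 on both days with a pseudocount of 5 FPKM and with at least 5 FPKM. They were also 0 with a difference of 2 and with centring on length. The Day 4 shares of all genes higher were 9.33%, 27.4%, 7.36% and 20.1% in that order. On Day 4 the count was 2 with a pseudocount of 0.1 FPKM, beside 32.6%, and 2 with division by the sum, beside 42.2%. Of the 24 cholesterol synthesis genes, those higher on Day 0 (8) were 4 with a pseudocount of 5 FPKM, beside 2.51% of all genes. They were 1 with a difference of 2, beside 2.09%, and 5 with centring on length, beside 11.8%. On Day 4 (11) they were 18 with division by the sum, beside 42.2% of all genes higher under that division and 25.6% without it. The other 52 alternatives for these counts left them within 1.5 times of the value given. For single genes, 69 of 115 alternative differences kept their direction and their side of 1 and moved the ratio of the genotypes by no more than 1.5-fold, and 46 did not. Among the called differences of the 10 genes, 0 changed sign. The causes of these moves were not tested. Depth limits the low genes most: *Apoc2*, *Mttp* and *Abcg1* rested on 3 estimated fragments or fewer in each group.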

Other observations

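Nuclear receptors and other regulators of lipid genes were examined beside the lipoprotein genes. Of 27 listed, 21 were counted on Day 0, with 1 lower and 4 higher by 1 or more in ΔIEC cells, beside 16.1% and 13.5% of all genes, and 22 on Day 4, with 6 lower and 6 higher, beside 26.1% and 25.6%. The deleted gene, *Tfeb*, was 1 of the 6 lower on Day 4, and without it 5 of 21 were lower. Less the medians of genes of similar length, the counts of Day 0 were 3 lower and 2 higher, beside 11.7% and 11.8% of all genes, and the median went from 0.09 to -0.17. Those of Day 4, with *Tfeb* included, were 8 lower and 3 higher, beside 20.8% and 20.1%, and the median went from -0.14 to -0.61. Without *Tfeb*, 7 were lower and 3 higher on Day 4, and the median went from -0.01 to -0.57. *Pparg*, a fatty acid receptor of colonocytes, had an FPKM of 15.6 in flox/flox and 36.2 in ΔIEC cells on Day 0, of 6.65 and 35.3 on Day 4 and of 6.98 and 28.7 on Day 11. *Nr1h4*, the bile acid receptor, had 3.32 and 9.29 on Day 0, 3.81 and 13.2 on Day 4 and 3.81 and 13.7 on Day 11. *Cdx1*, an intestinal homeobox factor, had 12.5 and 7.54 on Day 0, 25.9 and 6.98 on Day 4 and 30.9 and 7.94 on Day 11. *Pparg* and *Nr1h4* were thus higher and *Cdx1* lower in ΔIEC cells in each table. *Nr1h2* and *Nr1h3*, the LXR receptors known to activate *Abca1* and *Abcg1*, were named after their values were seen and had differences of 0.06 and -0.06 on Day 0, of 0.26 and -0.38 on Day 4 and of 0.11 and -0.34 on Day 11.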
